A study of Rattus norvegicus with 23 samples.

Results

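The collagens were followed in the lungs of elderly rats that had inhaled a titanium dioxide (TiO2) aerosol or filtered air. They were chosen by name: every gene on the array whose symbol was Col, a number, the letter a and a number. The array held 44 such genes out of 25597 genes with a symbol, read by 80 probes and 173 spots. By structure, 11 encoded fibrillar collagens, 8 collagens of the basement membrane and 25 the other collagens. Of these, 43 (11 fibrillar, 8 basement membrane and 24 other) passed a filter on dim probes (5 or more arrays had to exceed the level of the negative controls), and 23031 genes in all passed it. The collagen that did not was Col28a1. Of the 43, the software marked 33 as well above background on every array (9 fibrillar, 8 basement membrane and 16 other), and the remaining 10 lay near background on some or all arrays.

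A collagen is a trimer of chains wound into a triple helix, in which glycine recurs at a fixed spacing along each chain. Fibrillar collagens (types I, III and V in the lung) form the fibres that carry tension in airways, vessels and septa, type IV collagen forms the sheet-like network under epithelium and endothelium, and the FACIT collagens (fibril-associated collagens with interrupted triple helices) sit on the surface of fibrils. The chains are hydroxylated and folded in the cell, trimmed outside it, cross-linked by lysyl oxidases and broken down by metalloproteinases and cathepsins, and fibroblasts make most of the fibrillar kind.

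The 23 arrays held 1 rat each: 6 controls and 5 exposed rats killed on D0, the last day of exposure, and 6 controls and 6 exposed rats killed on D28, after 28 days of recovery. All were male F344 Fisher rats aged 19 months at the onset of inhalation. Exposed rats breathed the TiO2 aerosol (P25) nose-only at 10 mg/m3, for 6 hours a day and 5 days a week over 4 weeks, and controls breathed filtered air in the same way. RNA came from the accessory lobe, a small piece of lung in which fewer cells of a type and less RNA per cell cannot be told apart. For exposed rats of D28, titles and descriptions give day 28, which was used, although their source name says day 0.

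The software called 69.52% to 77.85% of spots per array well above background, and no pair of arrays held identical values. The arrays lay on 5 slides. Of these, 3 held all 4 groups, 1 lacked controls of D28 and 1 held a single control array of D28, and the D28 rats were also 28 days older than the D0 rats, so that age, recovery and anything else that differed between the days of killing cannot be told apart. As a check of the tissue, all 12 alveolar epithelial markers measured, among them Sftpc and Ager, were well above background on every array. All values below are quantile normalized log2 signals of the array, so that 1 unit is a doubling, and the number of arrays limits their precision. A collagen was called changed when its limma p-value, adjusted by the method of Benjamini and Hochberg over all 23031 genes, was below 0.05, and was counted as a DEG when its fold change (FC) was also at least 1.5, which is 0.58 on the log2 scale.

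Some probes lay in the triple helix itself, and their letters show the repeat that defines the family. Of the 80 collagen probes, 6, from 5 collagens, carried a GGN glycine codon every 9 bases over their whole length. One probe of a fibrillar chain and probes of both chains of the type IV trimer found beneath smooth muscle are given, 5′ to 3′ as printed on the array, with the 6 glycine codons in capitals and the rn4 position of the array file.
Col11a2, chr20:4936632-4936946, minus strand: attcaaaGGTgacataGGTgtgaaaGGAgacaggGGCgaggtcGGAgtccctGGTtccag
Col4a5, chrX:36935063-36935551, minus strand: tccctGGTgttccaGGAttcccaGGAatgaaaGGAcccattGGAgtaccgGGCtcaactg
Col4a6, chrX:37482127-37482186, plus strand: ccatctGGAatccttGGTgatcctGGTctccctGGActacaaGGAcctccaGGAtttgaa
All 3 probes have 60 bases, those of Col11a2 and Col4a5 lie over a longer span of genome, and the codons between the glycines differ between the chains. The Col11a2 probe shown was well above background on no array.

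Few collagens changed with exposure. Against controls, 3 of 43 were called on D0, where 2.85% of all genes were called, and 2 of 43 on D28, where 1.32% were. The calls on D0 were Col16a1 and Col9a2, both higher, and Col4a4, lower. Those on D28 were Col16a1 and Col9a2, both higher again. The mean of the D0 and D28 effects gave the same 3 genes as D0, where 6.55% of all genes were called. Fitted to the arrays of D28 alone, neither Col16a1 nor Col9a2 was called (limma adjusted p = 0.0708 and 0.109). As DEGs, Col16a1 and Col9a2 counted on D0 (1.78% of all genes) and Col9a2 on D28 (0.756%). The count of 1 on D28 became 0 without control 6 of D28 and 2 without control 5 of D0, control 2 or 4 of D28 or exposed rat 2 or 3 of D28. The difference between the effects of D28 and D0 was called by limma for 0 of 43 collagens and 0.0304% of all genes, and for 1 collagen at an unadjusted p below 0.05 (3.44% of all genes). That gene was Col24a1, which was not well above background on any array. At that unadjusted threshold 7 of 43 collagens passed on D0, 6 on D28 and 7 for the mean effect, where 11.9%, 11% and 17.2% of all genes did.

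The other collagens were spread to both sides of 0. On D0, 19 of 43 collagens were higher in exposed rats with a median log2 FC of -0.028, and on D28 15 were, with a median of -0.056. Over all genes 49.9% and 48.9% were higher, with medians of -0.001 and -0.006. The median log2 FC of the 11 fibrillar collagens was -0.13 on D0 and -0.105 on D28, that of the 8 basement membrane collagens -0.162 and -0.083, and that of the 24 others 0.093 and -0.047. When 1 array was left out, the D0 median of all collagens ran from -0.112 to 0.033 and was above 0 without control 4 (0.017) or exposed rat 5 of D0 (0.033). That of the basement membrane collagens ran from -0.26 without exposed rat 3 to -0.018 without exposed rat 5, and that of the others from -0.01 without exposed rat 3 to 0.143 without control 4. The D0 and D28 effects share no array. Among the 33 collagens well above background, 20 had the same sign on both days, 5 higher and 15 lower, or 60.6% against 63.0% of all genes.

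**Figure D1:**
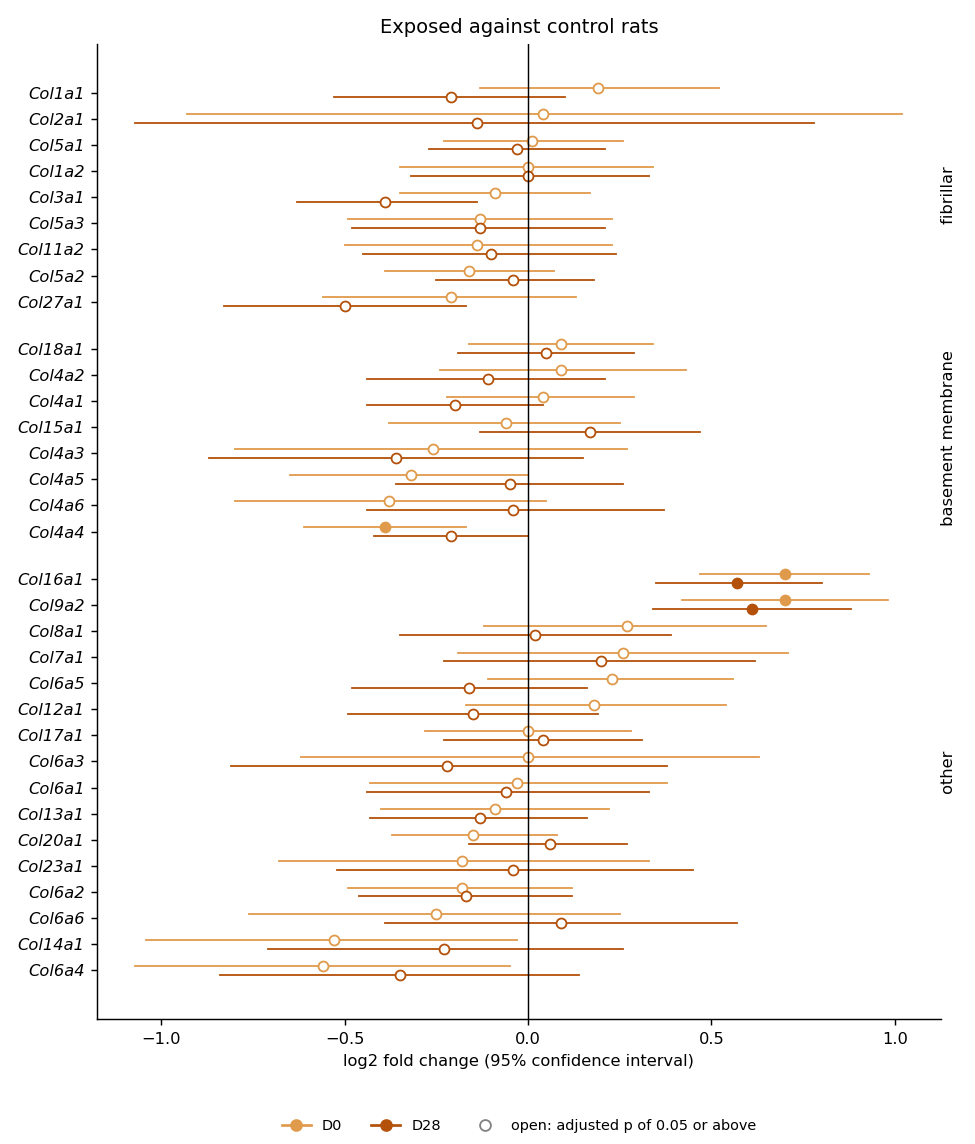
Log2 fold change of exposed against control rats with its 95% confidence interval (x axis) for the 33 collagens well above background on every array (y axis), on D0 (light points, 5 exposed and 6 control rats) and D28 (dark points, 6 and 6), by class. Filled points passed an adjusted p of 0.05: Col16a1 and Col9a2 lie at 0.70 each on D0 and at 0.57 and 0.61 on D28, and Col4a4 at -0.39 on D0.

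The width of the intervals sets what the arrays could exclude. The limits of the 95% interval lay a median of 0.34 from the estimate on D0 and 0.32 on D28 over the 33 collagens. The whole interval lay within a FC of 1.5 in either direction for 19 of the 33 on D0 and 23 on D28. For the others, among them the called Col16a1 and Col9a2, a change of that size was not excluded at this number of rats. The pooled SD between rats of a group ran from 0.16 for Col4a4 and 0.17 for Col16a1 to 0.80 for Col2a1. Its median was 0.27 over the 33 and 0.32 over all genes, dim ones included.

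The collagens with the largest FC differed between days. In controls, 3 of 43 were called, where 0.877% of all genes were: Col3a1, Col1a1 and Col4a1. All 3 were higher on D28 than on D0 (0.573% of all genes), and 0 of 43 were called lower (0.304%). By p-value Col3a1 stood at rank 5 and Col1a1 at rank 7 of all genes tested, and both were DEGs (0.608% of all genes). In exposed rats the same comparison was added after the values had been seen, and Col3a1 and Col1a1 were called (2 of 43, against 0.417% of all genes), at ranks 9 and 15. Both were higher on D28 (0.252% of all genes) and both were DEGs (0.352%). Of 43 collagens, 31 were higher on D28 in controls with a median log2 FC of 0.191, and 30 in exposed rats with a median of 0.184. Over all genes the medians were -0.006 and -0.014, and 48.9% and 47.3% were higher. At an unadjusted p below 0.05, 16 collagens passed in controls and 12 in exposed rats (13.3% and 7.71% of all genes).

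The comparisons of days in controls and in exposed rats share no array. Among the 33 collagens well above background, 21 were higher on D28 in both and 5 lower in both, so that 78.8% had the same sign against 67.1% of all genes. Across these 33 genes, which are not independent replicates, the log2 FC of the 2 comparisons had a Pearson r of 0.84 and a Spearman rho of 0.76, against 0.32 and 0.39 over all genes. The values for all genes again include dim genes, unlike those for the 33 collagens.

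**Figure D2:**
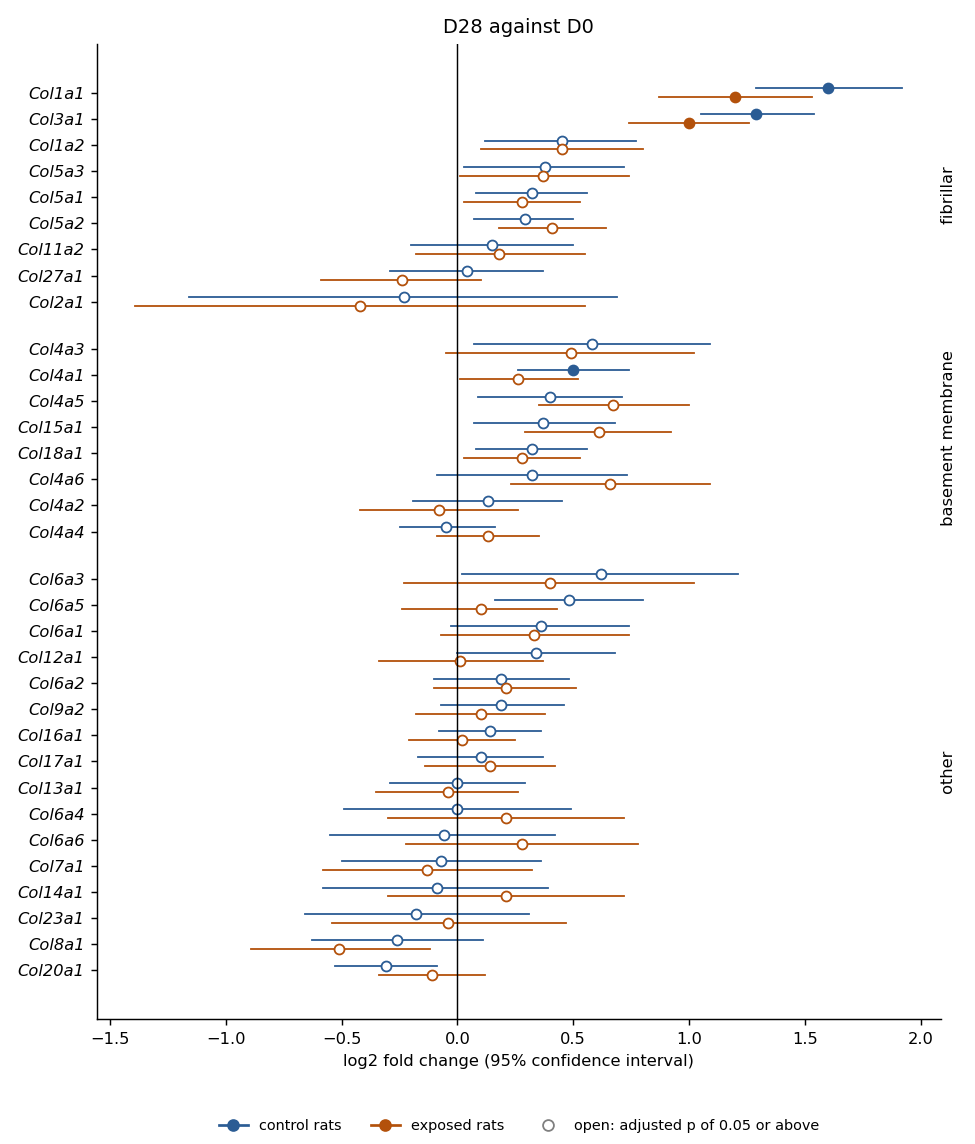
Log2 fold change of D28 against D0 with its 95% confidence interval (x axis) for the 33 collagens well above background on every array (y axis), in controls (blue) and in exposed rats (brown), by class. Filled points passed an adjusted p of 0.05: Col1a1 and Col3a1 lie at 1.60 and 1.29 in controls and at 1.20 and 1.00 in exposed rats, and Col4a1 at 0.50 in controls.

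Among the fibrillar collagens, Col1a1 encodes the chain that fills most of the type I trimer. Its log2 signal in controls ran from 9.71 to 10.25 on D0 with a median of 9.97 and from 11.31 to 11.92 on D28 with a median of 11.54. In the 5 exposed rats of D0 it was 10.00, 10.09, 10.34, 10.74 and 9.74, and in those of D28 it ran from 11.02 to 11.60 with a median of 11.43. Every D28 array lay above every D0 array, in controls and exposed rats alike (higher without overlap: 1.02% and 0.669% of all genes). Exposed and control arrays overlapped on both days. The D28 to D0 FC was 3.04 in controls (log2 FC 1.60, SE 0.15, limma adjusted p = 1.84e-06) and 2.29 in exposed rats (1.20, SE 0.16, adjusted p = 0.000265). Exposed against control rats gave 0.19 on D0 (95% interval -0.13 to 0.52) and -0.21 on D28 (-0.53 to 0.10), neither called. Its 2 probes both rose with the day, by 1.29 and 1.92 on the log2 scale in controls.

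Col3a1, the single chain of type III collagen, behaved alike over the days. The probe was printed in 10 spots per array, which were averaged. In controls its log2 signal ran from 11.28 to 11.65 on D0 and from 12.51 to 12.92 on D28, with medians of 11.47 and 12.76. In exposed rats it was 11.30, 11.41, 11.56, 11.69 and 10.90 on D0, and from 12.20 to 12.61 with a median of 12.34 on D28. The days did not overlap in either group (higher without overlap: 1.02% of all genes in controls and 0.669% in exposed rats). The D28 to D0 FC was 2.45 in controls (log2 FC 1.29, SE 0.12, limma adjusted p = 1.65e-06) and 2.00 in exposed rats (1.00, SE 0.12, adjusted p = 0.000191). On D28 the exposed rats lay 0.39 below the controls on the log2 scale (-0.39, SE 0.12), with overlapping arrays, an unadjusted p of 0.00378 and an adjusted p of 0.13, so the gene was not called for exposure. The day by exposure difference was -0.30 for Col3a1 (interval -0.66 to 0.06) and -0.41 for Col1a1 (-0.86 to 0.05), and neither was called.

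The other chain of type I, Col1a2, had a smaller difference. Controls had a median log2 signal of 12.81 on D0 and 13.27 on D28, exposed rats one of 12.94 and 13.30, and ranges overlapped between the days in controls (12.56 to 13.16 against 12.70 to 13.69). Its log2 FC between days was 0.45 in each of controls and exposed rats (SE 0.16 each), with limma adjusted p of 0.215 and 0.432, so it was not called. The interval of its exposure effect ran from -0.35 to 0.34 on D0 and from -0.32 to 0.33 on D28. The type V chains Col5a1, Col5a2 and Col5a3, which set the width of type I fibrils, gave log2 FC of 0.32, 0.29 and 0.38 between days in controls and 0.28, 0.41 and 0.37 in exposed rats, all uncalled.

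**Figure D3:**
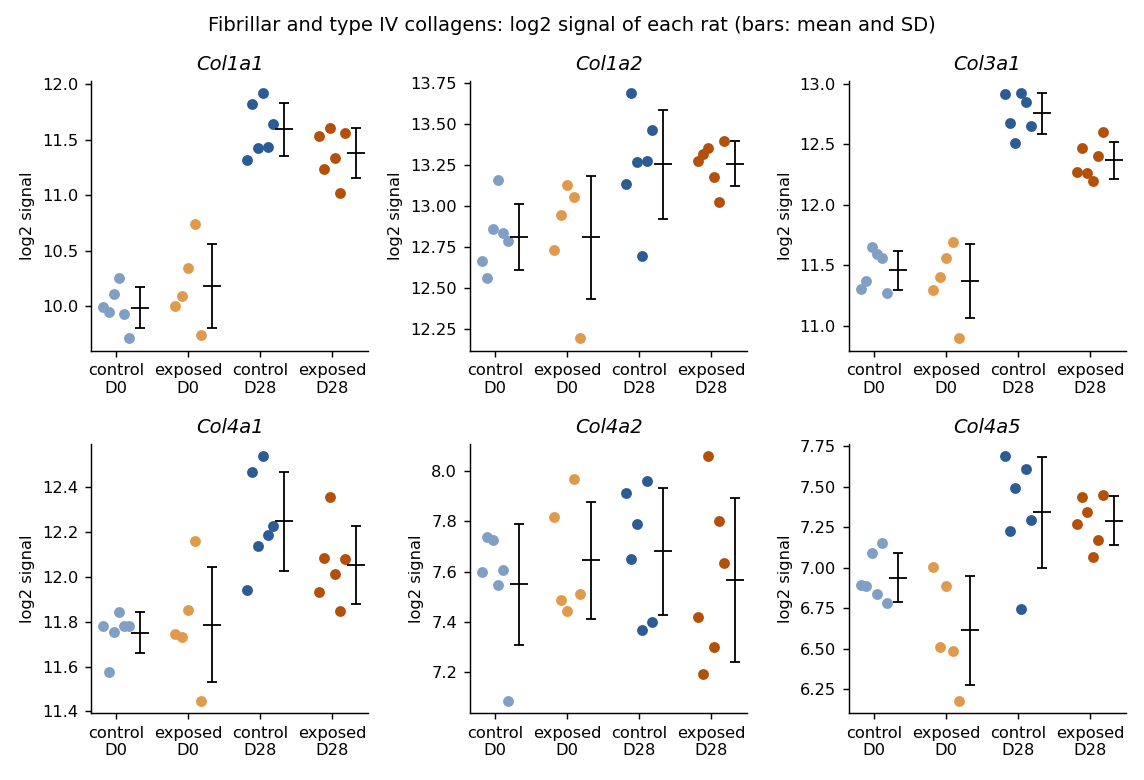
Log2 signal (y axis) of Col1a1, Col1a2, Col3a1, Col4a1, Col4a2 and Col4a5 in each of the 23 rats, by group (x axis: 6 controls and 5 exposed rats on D0, 6 and 6 on D28), with the mean and SD of each group as bars. The D28 points of Col1a1 and Col3a1 lie wholly above the D0 points, from 11.02 and 12.20 upward against at most 10.74 and 11.69.

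The remaining fibrillar collagens gave no call in the main fit. Col27a1, a fibrillar collagen of developing cartilage, ran from 6.48 to 6.95 in controls and from 5.89 to 6.45 in exposed rats of D28, without overlap (lower without overlap on D28: 0.543% of all genes). Its log2 FC there was -0.50 (SE 0.16, adjusted p = 0.146), and on D0, where the arrays overlapped, -0.21. Of its 2 probes, both were lower on D28, by -0.57 and -0.43. The mean effect of Col27a1 over both days was called lower in 4 of 15 alternative settings (limma adjusted p from 0.0128 to 0.0403). Without exposed rat 4 of D0, Col27a1 was called lower for the mean effect (adjusted p = 0.00557) and on D28 (0.045). Col2a1, the chain of cartilage collagen, had the widest interval of the 33 in both comparisons of days, and Col11a2 gave -0.14 on D0 and -0.10 on D28 with exposure. The only Col11a2 probe well above background gave 0.10 and 0.04, and its other probes, averaged with it, were so on no array. Col11a1 and Col24a1 were not well above background on any array, so no FC is given for them. The D28 signals of Col24a1 did not overlap, at 1.73 to 1.97 in controls and 2.27 to 2.80 in exposed rats on the log2 scale (higher without overlap on D28: 0.677% of all genes). On D0 they ran from 1.90 to 3.19 and from 1.74 to 2.55. It was not called on D28 (limma adjusted p = 0.0815), but was in the fit to the arrays of D28 alone (0.0206) and without control 5 of D0 (0.0472).

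Among the basement membrane collagens, Col4a1 and Col4a2 encode the chains of the trimer found in every basement membrane, and both genes start back to back from a shared segment. In the RefSeq promoter table (build GRCr8) the start of Col4a2, on the minus strand, and that of Col4a1, on the plus strand, lie 76 bases apart. That segment, chr16:84885521-84885596, is shown because Col4a1 was called between days in controls and Col4a2 was not. It is read on the plus strand from Col4a2 to Col4a1, with a motif match in capitals.
Segment between Col4a2 and Col4a1: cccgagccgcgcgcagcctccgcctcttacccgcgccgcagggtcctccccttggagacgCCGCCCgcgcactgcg
The motifs searched, on both strands, were the TATA box (TATAAA), the CCAAT box (its name gives its letters), the GC box (GGGCGG) and the AP-1 motif (TGANTCA). No matches overlapped in the windows shown. The segment held 1 GC box and none of the others. In the last bases before the start of all 33469 promoters of the table, over the same length, a GC box was present in 18.1%. The pairs Col4a3 with Col4a4 and Col4a5 with Col4a6 start head to head in the same way, 412 and 1414 bases apart.

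Col4a1 rose between days in controls. Its log2 signal, also the mean of 10 spots, ran from 11.57 to 11.84 on D0 with a median of 11.78 and from 11.94 to 12.54 on D28 with a median of 12.20, without overlap (higher without overlap: 1.02% of all genes). The FC was 1.41 (log2 FC 0.50, SE 0.11, limma adjusted p = 0.0403), below the limit of a DEG. In exposed rats it was 11.75, 11.73, 11.85, 12.16 and 11.45 on D0 and from 11.85 to 12.35 on D28, with overlap and a log2 FC of 0.26 (SE 0.12, adjusted p = 0.633). The difference between both was not called (-0.23, interval -0.58 to 0.12). The call in controls was close to the threshold and was not made in 14 of 23 fits that left out 1 array (any of the 6 controls of D0, controls 2, 3, 4, 5 and 6 of D28, exposed rats 1 and 2 of D0 and exposed rat 1 of D28), in which as in the others the log2 FC stayed between 0.44 and 0.56. It was also lost with slide as a fixed block (0.40, adjusted p = 0.106), without slide 5 (0.44, adjusted p = 0.088) and with the older gene names (adjusted p = 0.052).

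Col4a2, its neighbour and partner, was not called in any comparison. Its log2 signal ran from 7.09 to 7.74 in controls of D0 and from 7.37 to 7.96 in those of D28, and in exposed rats from 7.44 to 7.97 and from 7.19 to 8.06. The log2 FC between days was 0.13 in controls (interval -0.19 to 0.45) and -0.08 in exposed rats (-0.42 to 0.26). A comparison of the 2 genes as such was not tested, since each was read by 1 probe.

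Col4a4 was the only collagen called lower with exposure in the main fit. It forms the trimer of mature alveolar and glomerular basement membrane with Col4a3 and Col4a5. Its log2 signal in controls of D0 ran from 10.66 to 10.94 with a median of 10.77, and in the exposed rats it was 10.54, 10.47, 10.66, 10.15 and 10.18. The highest exposed array just passed the lowest control array. The log2 FC was -0.39 (SE 0.10, limma adjusted p = 0.045), and on D28 it was -0.21 (SE 0.10, adjusted p = 0.436), where controls ran from 10.49 to 10.95 and exposed rats from 10.42 to 10.71. All 4 of its probes were lower on both days, with log2 FC from -0.72 to -0.23 on D0 and from -0.33 to -0.08 on D28. The call on D0 was lost in 15 of 23 fits that left out 1 array (any of the 6 controls of D0, exposed rats 1, 2, 4 and 5 of D0, control 5 of D28 and exposed rats 1, 2, 3 and 5 of D28), with log2 FC from -0.45 to -0.33 over the 23, while the mean over both days (-0.30, SE 0.07, adjusted p = 0.0117) was called in all 23. With the brightest probe in place of the mean of probes neither was called (adjusted p = 0.191 and 0.0574), and from the arrays of D0 alone the D0 call was lost (0.0945), as was that of the mean with the older gene names (0.076).

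The partners of Col4a4 had log2 FC below 0 on both days, but neither was called in the main fit. Col4a3 gave a log2 FC of -0.26 on D0 and -0.36 on D28 with intervals that spanned 0. Col4a5 gave -0.32 on D0 (adjusted p = 0.413) and -0.05 on D28. With the brightest probe in place of the mean of probes, Col4a5 was called lower on D0 (-0.36, limma adjusted p = 0.0478). That setting also called it lower for the mean over both days (-0.31, adjusted p = 0.00709). On D28, 0 of the 6 type IV chains were higher in exposed rats and their median log2 FC was -0.155, and on D0 2 of 6 were, with a median of -0.293.

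Between days, Col4a5 gave a log2 FC of 0.40 in controls (adjusted p = 0.236) and 0.67 in exposed rats (adjusted p = 0.062). The latter was past the threshold in 11 of 14 alternative settings and in 3 of 23 fits that left out 1 array, and the former in 3 of 14 and 0 of 23. In exposed rats the days did not overlap: 7.01, 6.51, 6.89, 6.49 and 6.18 on D0 against 7.07 to 7.45 on D28. Its 2 probes differed. The one whose sequence is given above had log2 FC of 0.13 and 0.56 in controls and exposed rats, and the other 0.68 and 0.79. Taken alone, without averaging, the other probe was called in both. Col15a1, a proteoglycan-like collagen of the outer basement membrane, also did not overlap in exposed rats (9.50, 10.07, 10.01, 9.88 and 9.32 against 10.20 to 10.64), with a log2 FC of 0.61 and an adjusted p of 0.0937. Higher without overlap in exposed rats were 4 of 43 collagens (Col1a1, Col3a1, Col4a5 and Col15a1), against 0.669% of all genes. Col18a1, the source of endostatin, had log2 FC of 0.32 and 0.28 between days and 0.09 and 0.05 with exposure, all uncalled.

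The 2 collagens higher with exposure were both FACIT collagens. Col16a1 encodes a minor collagen attached to fibrils and microfibrils. Its log2 signal, the mean of 10 spots of 1 probe, ran from 12.24 to 12.57 in controls of D0 with a median of 12.38, and was 13.37, 13.08, 13.28, 12.83 and 12.96 in the exposed rats. On D28 it ran from 12.44 to 12.70 in controls and from 12.88 to 13.40 in exposed rats, with medians of 12.53 and 13.16. Every exposed array lay above every control array on both days (higher without overlap: 1.94% of all genes on D0 and 0.677% on D28). The FC was 1.62 on D0 (log2 FC 0.70, SE 0.11, limma adjusted p = 0.000932) and 1.49 on D28 (0.57, SE 0.11, adjusted p = 0.00769). The change of the effect between days was -0.12 (interval -0.44 to 0.20). Within the slides that held both groups, exposed minus control was 0.47 to 1.04 on D0 (4 slides) and 0.37 to 0.70 on D28 (3 slides).

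Col9a2 encodes a chain of type IX collagen, which coats the type II fibrils of cartilage. Its log2 signal ran from 8.35 to 8.86 in controls of D0 with a median of 8.57 and was 9.30, 9.48, 9.44, 8.86 and 9.34 in the exposed rats, so that the lowest exposed and the highest control array met. On D28 it ran from 8.33 to 8.94 in controls and from 9.23 to 9.76 in exposed rats, with medians of 8.87 and 9.30. There was no overlap on D28 (higher without overlap: 0.677% of all genes). The FC was 1.63 on D0 (log2 FC 0.70, SE 0.13, limma adjusted p = 0.00426) and 1.53 on D28 (0.61, SE 0.13, adjusted p = 0.0175). The change of the effect between days was -0.09 (interval -0.48 to 0.29). Within slides it was 0.10 to 1.09 on D0 and 0.60 to 0.92 on D28, higher in exposed rats on each slide. Both Col16a1 and Col9a2 were called on D0 and on D28 in each of the 23 fits that left out 1 array. Neither was called between days (log2 FC 0.14 and 0.19 in controls, 0.02 and 0.10 in exposed rats).

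**Figure D4:**
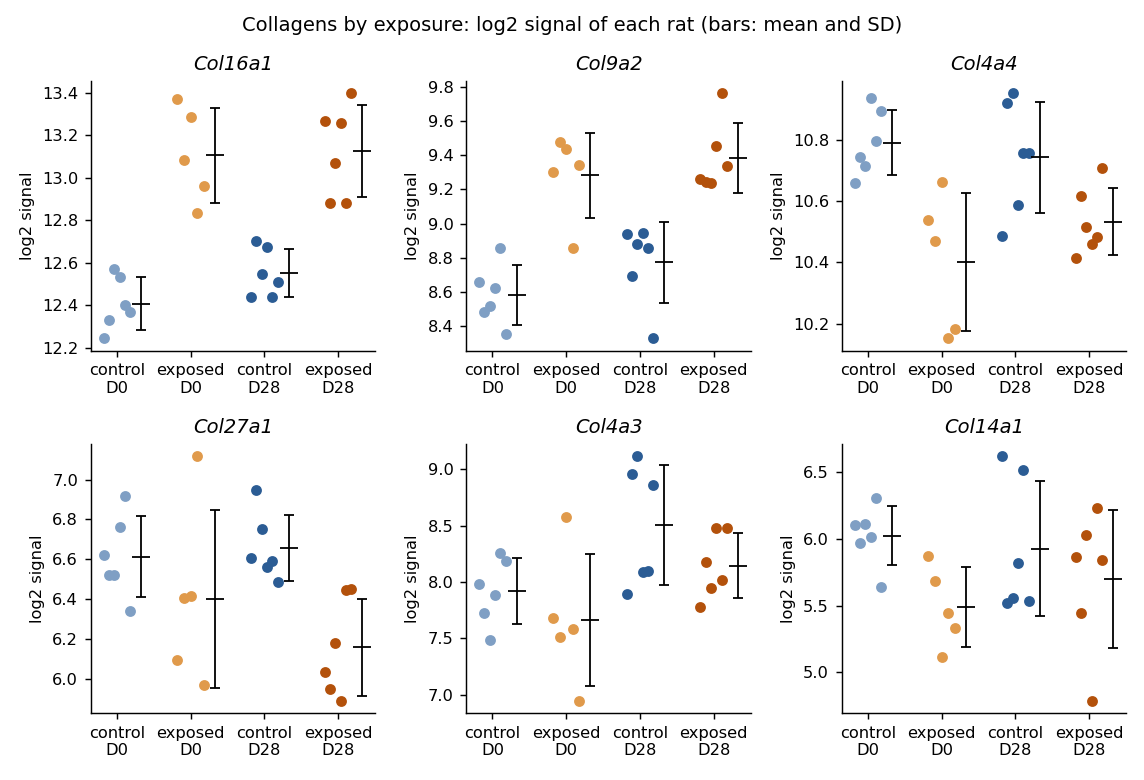
Log2 signal (y axis) of Col16a1, Col9a2, Col4a4, Col27a1, Col4a3 and Col14a1 in each of the 23 rats, by group (x axis: 6 controls and 5 exposed rats on D0, 6 and 6 on D28), with the mean and SD of each group as bars. All exposed points of Col16a1, from 12.83 upward, lie above all control points, of which the highest is 12.70.

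The other chains of type IX collagen were not called. Col9a3 was well above background on 4 of 6 control and 5 of 5 exposed arrays of D0 and gave a log2 FC of 0.22 on D0 and 0.17 on D28, and Col9a1 was near background (2 of 6 and 3 of 5 arrays). Of 14 markers of cartilage, the tissue known for type IX collagen, 3 were higher on D0 and 5 on D28, with 0 called higher by limma and 0 higher at an unadjusted p below 0.05 on either day (5.61% and 4.82% of all genes at that p). At that p 2 of 14 were lower on each day (1460 and 1424 of 23031 genes). Of the 14, 0 were called lower on D0 and 1 on D28, Sox5 (-0.47, limma adjusted p = 0.00821), against 1.34% and 0.534% of all genes. For the mean effect Sox5 and Chad were called lower (adjusted p = 0.00386 and 0.022), as were 807 of 23031 genes. The mean log2 signal of the 14 cartilage markers ran from 5.54 to 5.89 in controls and from 5.44 to 5.62 in exposed rats of D0. Acan, the main cartilage proteoglycan, was not well above background on any array.

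The promoters of Col16a1 and Col9a2, the collagens called higher with exposure, are given for comparison as the 250 bases before their start in the RefSeq table (GRCr8). Of the 44 collagens, 35 had a window in the table. Both lie on the plus strand of chromosome 5, and capitals mark matches to the motifs named above.
Col16a1, chr5:147672846-147673095: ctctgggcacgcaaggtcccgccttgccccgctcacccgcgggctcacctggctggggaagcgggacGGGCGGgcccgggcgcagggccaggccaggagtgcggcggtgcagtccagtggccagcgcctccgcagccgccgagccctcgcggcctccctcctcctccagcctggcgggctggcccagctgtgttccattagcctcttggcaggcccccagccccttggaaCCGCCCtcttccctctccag
Col9a2, chr5:139892548-139892797: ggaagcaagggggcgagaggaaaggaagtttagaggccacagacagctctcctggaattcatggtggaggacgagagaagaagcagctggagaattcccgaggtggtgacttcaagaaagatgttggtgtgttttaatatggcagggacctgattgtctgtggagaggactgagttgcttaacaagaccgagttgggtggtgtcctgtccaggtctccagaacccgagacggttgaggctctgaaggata
The Col16a1 window held 2 GC boxes and none of the other motifs, and the Col9a2 window held none. Over all 33469 promoters of that length 30.5% held a GC box, and 19 of the 35 collagen promoters did. The CCAAT box was in 34.0% and in 11 of 35, the TATA box in 12.9% and in 4 of 35, and the AP-1 motif in 6.34% and in 1 of 35. A match is a run of letters and was not tested as a site.

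The remaining FACIT and other collagens gave no call in the main fit. Col14a1, a FACIT collagen of type I fibrils, gave a log2 FC of -0.53 on D0 (unadjusted p = 0.0392) and -0.23 on D28, and Col12a1, its close relative, 0.18 and -0.15. The chains of type VI collagen, which forms beaded filaments around cells, had a median log2 FC of -0.106 on D0 and -0.163 on D28 with exposure, with 2 and 1 of 6 higher. Col6a4 was the lowest of them on D0, at -0.56 (SE 0.25, adjusted p = 0.33). Its mean effect over both days was called lower with slide as a fixed block (-0.52, limma adjusted p = 0.0451). The same held without control 4 of D28, the only array of slide 5 (-0.54, adjusted p = 0.041). Between days, 4 of 6 type VI chains were higher on D28 in controls and 6 of 6 in exposed rats, none called. Col6a3 gave 0.62 and 0.40. Col6a6, counted as lower in controls, averaged probes that differed. The probe well above background on every array gave a log2 FC of 0.62 in controls and 0.72 in exposed rats. The other, well above background on only 1 array (an exposed rat of D28), gave -0.75 and -0.16. The short-chain collagens Col8a1 and Col8a2, of vessel walls, gave -0.26 and 0.12 between days in controls and -0.51 and -0.14 in exposed rats. With exposure the brighter Col8a2 probe gave -0.50 on D0 and -0.47 on D28, and the other, near background, 0.31 and -0.23. With the filter on spots well above background, Col8a2 was called lower for the mean effect over both days (-0.49, limma adjusted p = 0.0215). The transmembrane collagens Col13a1 and Col17a1 differed by at most 0.14 in the 4 comparisons of exposure and of days. For Col13a1 this averaged 2 probes that differed, both well above background on every array. The brighter gave -0.40 on D0 and -0.15 on D28 with exposure, and the other 0.22 and -0.12. Between days the brighter gave 0.12 in controls and 0.37 in exposed rats, and the other -0.11 and -0.46. The anchoring fibril collagen Col7a1 differed by 0.26 with exposure on D0 and 0.20 on D28.

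Among enzymes that modify and cross-link collagen, Lox and Loxl2 rose between days. Of 31 measured, 1 was called higher and 0 lower in controls, and 2 higher and 0 lower in exposed rats, where 0.573% and 0.252% of all genes were called higher and 0.304% and 0.165% lower. Lox, the lysyl oxidase that starts cross-links, ran from 8.92 to 9.33 on D0 and from 9.73 to 10.04 on D28 in controls, and from 8.81 to 9.25 and 9.50 to 9.84 in exposed rats. Its days did not overlap in either group (higher without overlap: 1.02% and 0.669% of all genes). The log2 FC of Lox was 0.75 in controls (limma adjusted p = 3.67e-05) and 0.70 in exposed rats (adjusted p = 0.000191). Loxl2, a related oxidase that acts on type IV collagen, rose by 0.64 in exposed rats (adjusted p = 0.0188) and gave 0.37 in controls, uncalled. The collagen chaperone Serpinh1 gave -0.07 and -0.08 between days. With exposure, 1 of 31 was called lower on D0 and 0 on D28 (1.34% and 0.534% of all genes). That gene was P3h2, a prolyl 3-hydroxylase that modifies type IV collagen (-0.49, adjusted p = 0.0326). The median log2 FC of the 31 enzymes was -0.032 between days in controls and 0.065 in exposed rats, against 0.191 and 0.184 for the collagens.

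Among proteases that cut collagen, every call with exposure was for a higher signal. Of 13 measured, 2 were called higher on D0 and 1 on D28, against 1.51% and 0.782% of all genes, and 0 lower. Called or not, 9 were higher and 4 lower on D0, and 7 higher and 6 lower on D28 (median log2 FC 0.209 and 0.055). Ctsk, the lysosomal collagenase cathepsin K, lay between 11.05 and 11.51 in D0 controls and between 11.76 and 12.04 in the exposed rats of that day, and on D28 between 10.78 and 11.51 against 11.74 to 12.45, without overlap. Higher without overlap were 1.94% of all genes on D0 and 0.677% on D28. The log2 FC of Ctsk was 0.67 (limma adjusted p = 0.0096) and 0.84 (adjusted p = 0.0027). Mmp14, a membrane-bound collagenase, rose by 0.59 on D0 (adjusted p = 0.00754) and gave 0.33 on D28 (adjusted p = 0.192), and was also higher on D28 than on D0 in controls, by 0.56 (adjusted p = 0.0174). Fap was not well above background on any array.

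Proteins that bind collagen gave calls in the other direction. Of 20 small leucine-rich proteoglycans and other binding proteins, 16 were lower on D0 and 14 on D28, with 2 called lower on D0, Ogn (-0.46, adjusted p = 0.00478) and Omd (-0.59, adjusted p = 0.0173), and 0 on D28, where 1.34% and 0.534% of all genes were called lower. Of 14 receptors and uptake genes, 11 were lower on D0 and 12 on D28. The one called was Antxr1, which binds type I and type VI collagen: its log2 FC was -0.77 on D0 (adjusted p = 0.00373) and -0.60 on D28 (adjusted p = 0.0329), and it was higher on D28 than on D0 by 0.85 in controls and 1.03 in exposed rats (adjusted p = 0.00202 and 0.000506). Of 17 laminins and other noncollagenous basement membrane genes, 14 were higher on D28 in controls and 13 in exposed rats, with medians of 0.147 and 0.106 and 0 called in either, while 5 and 4 had an unadjusted p below 0.05 by limma, all higher (6.52% and 3.83% of all genes).

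Markers of the cells that make and border collagen moved with some of these results, and their part in them was not tested. Beside the rise of Col1a1, Col3a1 and Col4a1 between days, 10 of 15 fibroblast markers were higher on D28 in both controls and exposed rats. Their mean log2 signal ran from 8.94 to 9.05 on D0 and from 9.10 to 9.28 on D28 in controls, and from 8.75 to 9.0 and 8.95 to 9.19 in exposed rats. Scara5 rose by 1.05 in controls and 1.13 in exposed rats, Pdgfrb by 0.80 in controls and Mfap5 by 0.52 in exposed rats, whereas Inmt fell by 1.12 in controls. All 15 were well above background on every array. Of 9 smooth muscle and myofibroblast markers, limma called 0 between days in controls, with 0 at an unadjusted p below 0.05, and 0 in exposed rats, with 3 at that p, all higher on D28.

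Beside the exposure results, 11 of 12 macrophage markers were higher on D0 and 10 on D28. On D0 their mean log2 signal was 9.19 to 9.74 in controls against 9.85 to 10.31 after exposure, without overlap, and on D28 it was 9.19 to 9.80 against 9.76 to 10.21. Spp1 rose by 2.20 and 2.13 and Cd68 by 0.55 and 0.42, and Marco was well above background on 2 of 5 exposed arrays of D0 and on 0 arrays of the other groups. Fibroblast markers with exposure were 8 of 15 lower on D0 and 12 on D28 (median log2 FC -0.033 and -0.152). On D0 Mfap5 (-0.58, limma adjusted p = 0.000634) and Tcf21 (-0.66, adjusted p = 0.0192) were called lower, and on D28 limma called 0, with 2 at an unadjusted p below 0.05, both lower. For these and the lists below, 1.34% of all genes were called lower on D0 and 0.534% on D28. At an unadjusted p below 0.05, 1424 of 23031 genes were lower on D28. Beside the lower Col4a4, 7 of 8 mesothelial markers were lower on D0, with 5 called lower. On D28 8 were lower, with 0 called by limma and 6 lower at an unadjusted p below 0.05. Their mean log2 signal on D0 was 8.82 to 9.16 in controls and 8.43 to 8.90 in exposed rats. Of 10 endothelial markers, 10 were lower on D0, with 0 called. On D28 8 were lower, with 1 called, Tek (-0.46, limma adjusted p = 0.0246). Their mean on D0 was 11.89 to 12.18 in controls against 11.66 to 11.90 in exposed rats. Alveolar epithelial markers were split, 7 of 12 higher on D0 and 6 on D28. Skeletal and cardiac muscle markers were 11 of 11 lower on D0, with a mean of 7.08 to 9.24 in controls (at most 7.75 without control 5) and 6.78 to 7.53 in exposed rats. On D28 they were 6 of 11 lower, with Tnnt2 and Actc1 called lower and means of 6.86 to 7.54 and 6.55 to 9.05, the highest in exposed rat 1, and Nppa was not well above background on any array.

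Chains that share a trimer varied together from rat to rat in some pairs. Whether these chains varied together more than collagens that share no trimer was not tested. For each of 8 pairs, chosen after the values had been seen (6 of chains known to share a trimer, Col1a1 with Col3a1, and Col9a2 with Col16a1), the deviations of the 23 rats from their group means were correlated, with a two-sided permutation test that shuffled rats within groups. Col4a3 and Col4a4 had a Pearson r of 0.75 (permutation p = 0.00058, adjusted over the 8 pairs 0.00464) and a Spearman rho of 0.71 (p = 0.00144, adjusted 0.0115), with r = 0.65 without the 2 rats farthest from the median and 0.62 with slide means removed. Col6a1 and Col6a2 had r = 0.60 (permutation p = 0.00495, adjusted 0.0198) and rho = 0.63 (p = 0.0039, adjusted 0.0156), with 0.56 and 0.71 under the same steps.

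For the 2 chains of type I, Col1a1 and Col1a2, r was 0.49 (permutation p = 0.0545, adjusted 0.109) and rho 0.58 (p = 0.0104, adjusted 0.0277). It fell to 0.29 without the 2 farthest rats and was 0.84 with slide means removed, so the value depended on these steps. Col1a1 with Col3a1 gave r = 0.54 (permutation p = 0.0334, adjusted 0.0891) and rho = 0.45 (p = 0.0498, adjusted 0.0996), and 0.25 without the 2 farthest rats. Col4a1 with Col4a2 gave r = 0.04 and rho = -0.17, Col4a5 with Col4a6 0.19 and 0.17, Col5a1 with Col5a2 0.23 and 0.19, and Col9a2 with Col16a1 0.08 and 0.05, with permutation p between 0.296 and 0.879 over both measures.

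**Figure D5:**
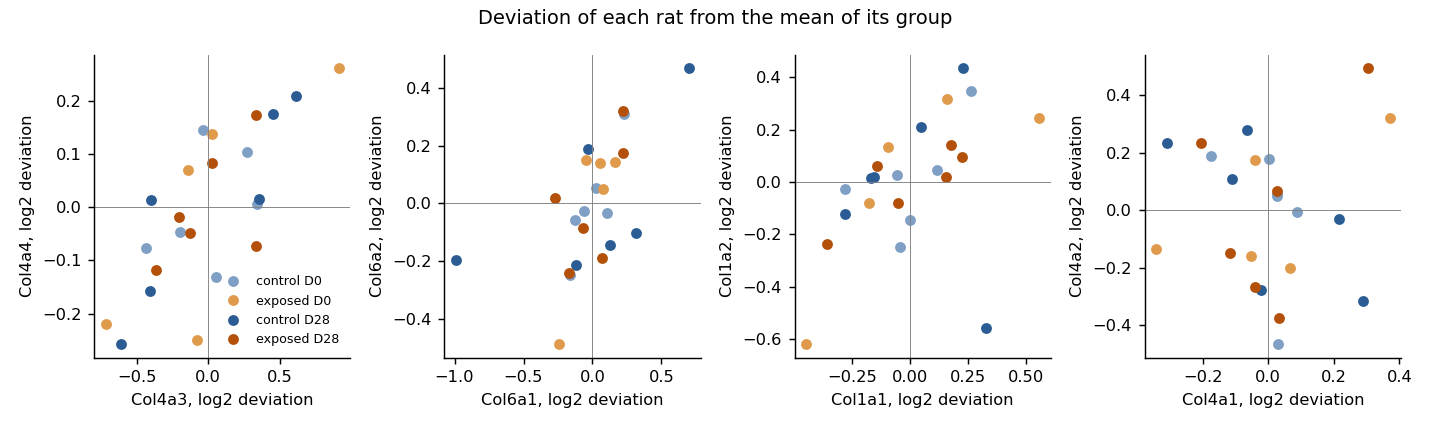
Deviation of the log2 signal of each of the 23 rats from the mean of its group, for 4 pairs of chains (each axis is 1 chain, colours are the 4 groups). The points of Col4a3 and Col4a4 (r = 0.75) and of Col6a1 and Col6a2 (r = 0.60) rise together, and those of Col4a1 and Col4a2 (r = 0.04) do not.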

How the data were processed

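Total RNA of the accessory lobe, labelled with Cy3, was hybridized to single-colour Agilent rat arrays, 1 rat per array. The deposited scanner files hold intensities per spot (processed, mean and median signal), made by the authors with Agilent Feature Extraction 11.0.1.1 per the labels (12.0.1.1 in the header of 1 array file), corrected for background within the array but not normalized between arrays. A deposited table of all arrays, with linear intensities already quantile normalized by the authors, served as an alternative.

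Spots marked as outliers were set missing, the processed signals were taken to log2, and a probe was kept where 5 or more arrays exceeded the 95th percentile of their negative controls, which left 40420 of 45598. After quantile normalization, replicate spots and then the probes of each gene were averaged, and 29 genes with a missing value were left out, which gave 23031 genes. Gene names were those of the 1 array file of the later software. Of the collagens, 24 had more than 1 probe past the filter, whose log2 FC had both signs in 8 on D0, in 10 on D28 and in 10 between days in controls.

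One limma model (limma 3.58.1, R 4.3.3) with 4 group means took in all 23 arrays (19 residual degrees of freedom) with no batch term: the methods mention a batch correction whose batches are not given in the sources used here. It was tested on simulated data. Where an adjusted p is printed it is limma's, by Benjamini and Hochberg over all genes, and 95% intervals come from the same fit. The array numbers are rats, so p-values measure the spread between rats.

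Named with values for each array or group were Col1a1, Col1a2, Col3a1, Col4a1, Col4a2 and every collagen called in a contrast or not overlapping between exposed and control arrays of a day (Col24a1 by its ranges, as it lay near background). The 3 collagens of each class with the smallest p-values, and in each other list the members called and the 2 with the smallest p-values in each exposure contrast, could be named too. Col4a5 and Col15a1 between days, Col14a1, Col12a1 and the other chains of types V, VI, VIII and IX were added after their values were seen. The members, classes and lists were chosen with earlier results of these data known. The lists (enzymes, binding proteins, basement membrane, receptors, proteases and 9 of cell types) came from general knowledge.

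The array files give probe positions on rn4, and promoters come from RefSeq (GRCr8). Alternatives were other scalings, background corrections, filters, probe rules, gene names, variance models, slide and replicate blocks, single-day fits, other call rules and leaving out each array. The comparison of days in exposed rats and the fit without slide 5 were added after the data were seen. Young rats and a sixth exposed array of D0 were not analysed here.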

Additional observations from a re-analysis of the deposited data

Results flagged for a closer look

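The 10 collagens described by array were examined for a rat far from the others of its group, in 40 tests of a group, and 3 stood out, where chance gives about 1 in 20. Control rat 2 of D0 had the lowest Col4a1, with a log2 signal of 11.57 against 11.75 in the next rat, and without it the log2 FC between days in controls was not called. Control rat 6 of D0 had the lowest Col4a2, at 7.09 against 7.55. Exposed rat 4 of D0 had the lowest Col9a2, at 8.86 against 9.30, and Col9a2 was called on D0 with and without it.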

How the results depend on the processing

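The direction of every collagen named as called was the same under each of the 15 or 16 alternatives that gave a value and in the 23 fits that left out 1 array. Col16a1, Col9a2, Col1a1 and Col3a1 were called in all of them, except that Col16a1 and Col9a2 on D28 were each called in 15 of 16. Fitted to the arrays of D28 alone, neither was called, and the count of 1 in place of 2 was Col24a1, which lay near background. Col4a4 on D0 was lost with the brightest probe, the replicate block and the arrays of the day alone, its mean effect with the brightest probe and the older gene names, and Col4a1 between days in controls with the older gene names, with slide as a fixed block and without slide 5, which holds 1 control of D28.

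Counts of collagens called changed by over 1.5 times as follows, and the cause was not tested. Between days in exposed rats (2), they were 4 with normexp, the brightest probe, the intensity trend with robust estimation, array weights and slide as a fixed or random block, and 5 with the filter on spots well above background, which mostly added Col4a5 and Col4a6. The mean exposure effect (3) gave 5 with that filter, and the days in controls (3) gave 5 with slide as a random block. With an unadjusted p the counts were 7 on D0, 6 on D28, 7 for the mean effect, 1 for the difference, 16 between days in controls and 12 in exposed rats, where 11.9%, 11%, 17.2%, 3.44%, 13.3% and 7.71% of all genes passed. Collagen DEGs on D28 (1) were 0 with normexp, with the median signal and with the deposited table, and 2 with cyclic loess, with slide as a fixed block and without slide 5.

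Leaving out 1 array gave 2 to 3 collagens called on D0, 2 to 3 on D28, 3 to 4 for the mean effect, 0 for the difference, 2 to 4 between days in controls and 2 to 3 in exposed rats. Collagen DEGs on D28 ran from 0 to 2. The median collagen log2 FC between days in controls ran from 0.136 to 0.234 over these fits, and from 0.102 with normexp to 0.238 with the filter on spots well above background.

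The replicate numbers of the labels are not stated to pair rats. The deviations of same-numbered rats had correlations from -0.225 to -0.117 on D0 and from -0.174 to 0.455 on D28, above 0.1 in 3 of 6, so the numbers were not taken to pair rats. With the replicate block, 2 collagens were called on D0, 2 on D28, 3 for the mean effect, 0 for the difference, 3 between days in controls and 2 in exposed rats, and Col4a4 on D0 had an adjusted p of 0.0761. Probes near background limit the 10 collagens that were not well above it on every array.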
